A study of Canis lupus familiaris with 77 samples.

Results

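The miRNAs described here are cfa-miR-128, cfa-miR-137 and cfa-miR-153, 3 of the 650 miRNAs detected by miR-seq (sequencing of small RNA) in a dog tissue atlas. They were chosen by name, as rows whose dog name is 1 of these 3. The libraries came from 16 tissues of untreated male beagle dogs, 10 months old per the study's methods, which also state that 5 dogs were perfused with phosphate buffered saline before the organs were taken, so that less blood remained in them. There were 76 libraries, with 5 from each of 14 tissues, 4 from colon and 2 from sciatic nerve. The labels give no dog number, no brain region and no cell sort, so each brain library is bulk tissue of a region not stated, and the accounts of how sciatic nerve RNA was pooled differ, so that it is not settled whether its libraries came from separate dogs. P-values therefore measure the spread between libraries, and for organs of the same dogs the samples of different tissues are not independent.

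A miRNA is cut from a hairpin precursor, and the strand that is kept pairs through its seed, the bases near its 5′ end, with target mRNAs and lowers their output. miR-128, miR-137 and miR-153 are known for their high levels in neurons. miR-128 comes from a pair of genes whose mature 3p strand is the same, MIR128-1 in an intron of R3HDM1 and MIR128-2 in an intron of ARPP21, and it restrains the excitability of neurons. miR-137 comes from a gene of its own between SNX7 and DPYD and acts in the maturation of neurons, whereas MIR153 lies in PTPRN2, which encodes a protein of the dense-core vesicles of neurons and endocrine cells. These neighbours were read by name from a RefSeq gene table of another dog assembly than the one the reads were aligned to, so no coordinates are given and no sequence is printed.

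Levels are in RPM, reads of a miRNA scaled to a common total of reads on miRNAs, and since mature miRNAs are of about the same length, RPM was compared between miRNAs without a length term. The libraries held 157871 to 7896424 reads on miRNAs, and the 5 brain libraries 785857 to 3217077. Where no read is found, up to 3 reads remain possible with 95% confidence, which is 0.380 RPM at the greatest depth and 19.0 RPM at the lowest. Intervals and this floor cover counting error only. Some libraries stood apart from others of their label. Thymus replicates 2, 3 and 5 had summed levels of 5 leukocyte miRNAs of 1115, 1134 and 1964 RPM, against 20813 and 21390 RPM in replicates 1 and 4. Testis replicates 2 and 3 had 5036 and 613 RPM of miR-202, miR-34b and miR-34c together, a list chosen after its values were seen, against 54752.5 to 102539 RPM in the other 3. Skeletal muscle replicate 4 had 690 RPM of miR-1, miR-133a and miR-206 together, against 38204 to 112138 RPM in the other 4. Values of miR-128 in thymus, testis and skeletal muscle are given with and without these libraries, a step chosen after seeing the data.

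By tissue median on the unscaled RPM, all 3 miRNAs were highest in brain, by very different margins, and for miR-153 the order of brain and pancreas turned with the scaling. miR-128 was among the most abundant miRNAs of brain, miR-153 overlapped between brain and pancreas, and miR-137 was low in absolute terms and varied more between brain libraries than either of the others. On the RPM scale the brain medians were 34047 for miR-128, 352 for miR-153 and 103 for miR-137, which placed them 7th, 114th and 170th among the miRNAs ordered by their brain median. The plot of every library shows all 3 patterns.

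**Figure D1:**
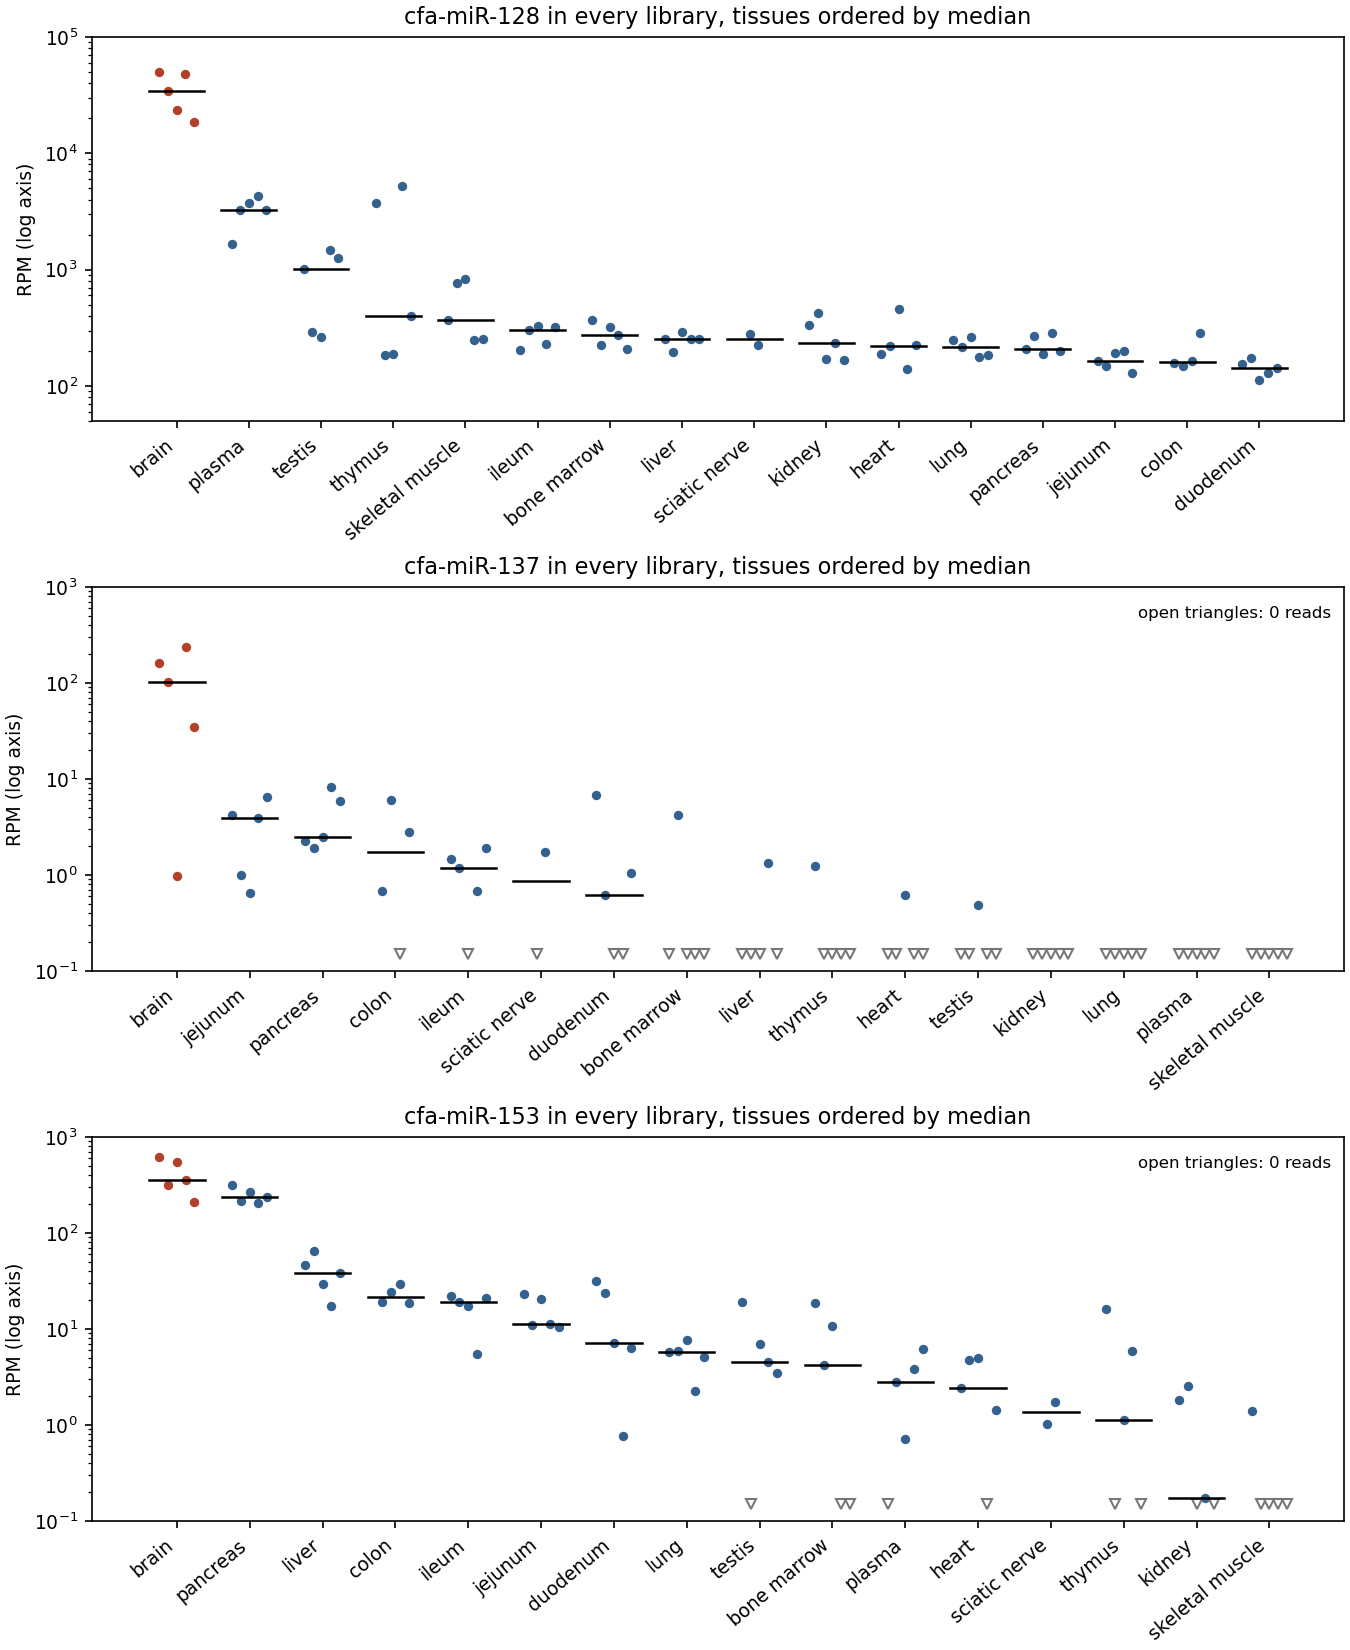
Level of each miRNA in RPM (log axis) in every library, 1 point per library, with tissues ordered by median from left to right, brain in red, black bars at the tissue medians and open triangles for libraries with 0 reads. The 5 brain libraries of miR-128 lie above all others, and 1 brain library of miR-137 lies at 0.982 RPM among the low tissues. The pancreas libraries of miR-153, at 204 to 313 RPM, overlap the range of brain, which starts at 210 RPM.

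miR-128 was read at 49434, 34047, 23306, 48333 and 18666 RPM in brain replicates 1 to 5. Every brain library exceeded every other library, the highest of which was thymus replicate 4 with 5216 RPM. The mean in brain was 34757 ± 14056 RPM (SD, n = 5), against 623 RPM over the 71 other libraries, a fold of 55.8. A two-sided exact rank-sum test gave an adjusted p of 7.18e-07. The p before adjustment, 1.08e-07, is the smallest that 5 against 71 libraries can give without ties. The brain median was 6.53 times the highest other library. miR-128 took 3.40% of the reads on miRNAs in brain by median and 0.324% in plasma.

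The call of enrichment used here took the fold and p limits of the study, with an exact form of its rank-sum test. The call needed an adjusted p under 0.05 and a mean over 5 times that of all other libraries. It was met in brain by 29.1% of the 650 miRNAs, and by miR-128, miR-137 and miR-153. All 5 brain libraries above all 71 others was a stricter pattern, shown by 12.9% of the miRNAs and by miR-128, and by neither miR-137 nor miR-153. Enrichment in brain was therefore common in this table, and the share of it is the base against which these 3 calls are read. The study itself listed fewer enriched miRNAs in brain, with miR-128 among those it classed as highly enriched there.

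Outside brain, miR-128 was above 100 RPM in every library, with 113 RPM as the lowest of the 71 and 250 RPM as their median. Plasma, the fluid of blood, came second by median, with 1649, 3224, 3712, 4284 and 3244 RPM in replicates 1 to 5. These 5 values overlapped neither those of brain nor those of testis, the tissue next in order, while thymus replicates 1 and 4, at 3742 and 5216 RPM, lay within and above the plasma range. With brain left out, the plasma mean of 3223 ± 980 RPM (SD, n = 5) was 7.56 times that of the other 66 libraries, with an adjusted p of 0.000538 by the exact rank-sum test. Such calls of a single tissue were made for 2.82% of all pairs of miRNA and tissue with brain left out, and miR-128 was called in plasma and in no other tissue. With brain kept among the other libraries, the fold in plasma was 1.13 and the call was lost. In plasma, the sum of the 8 miRNAs of a neuron list (miR-124, both arms of miR-9, miR-132, miR-212, miR-129, miR-138a and miR-138b) was 3.64 to 36.8 RPM, against 30866 to 59307 RPM in brain. The sum of miR-144, miR-451 and miR-486, which are made in red blood cells and their precursors, was 543769 to 815725 RPM in plasma. Among other tissues it reached 274986 RPM in heart, the highest, and 171907 RPM in skeletal muscle. Over the 71 non-brain libraries the means were 75637 RPM for miR-486, 10906 RPM for miR-451 and 375 RPM for miR-144, so most of the sum was miR-486. The leukocyte list summed to 13399 to 39453 RPM in plasma, a range that holds the sums of thymus replicates 1 and 4. The part of these lists in the plasma level of miR-128 was not tested. The study reports low RNA integrity for plasma and describes its RNA isolation apart from that of the organs. The part of either in the plasma values was not tested.

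In the tissues that followed, miR-128 was uneven between libraries of the same label. Testis had 1007, 292, 264, 1471 and 1250 RPM in replicates 1 to 5, and the low values were those of replicates 2 and 3, the libraries low in miR-202 and miR-34. Thymus had 3742, 184, 188, 5216 and 402 RPM, and the high values were those of replicates 1 and 4, the libraries high in leukocyte miRNAs. Skeletal muscle had 371, 771, 834, 249 and 253 RPM, with the lowest values in replicates 4 and 5 and the highest in replicates 2 and 3, which also had the highest sums of the muscle list, 112138 and 102162 RPM. The part of cell content in these differences was not tested, and in bulk samples fewer cells of a type and less RNA per cell cannot be told apart. Over all 5 thymus libraries the mean was 3.72 times that of the other non-brain libraries and not called, with an adjusted p of 0.574 by the exact rank-sum test, and without thymus replicate 4 it was 2.16 times. In testis the mean was 1.41 times, with an adjusted p of 0.133 by the same exact test, and 2.05 times without replicates 2 and 3, with an adjusted p of 0.102. Without thymus replicates 2, 3 and 5, the fold in thymus was 8.56, now on 2 libraries. The thymus and testis libraries left out were chosen after seeing the data and were also the lowest in miR-128. These folds without them are therefore descriptions, and no call is read from them.

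The remaining 11 tissues held medians from 142 RPM in duodenum to 301 RPM in ileum, and the ranges of neighbours in that order all overlapped. Of 15 pairs of neighbouring tissues over the whole order, the ranges were apart in 2, brain from plasma and plasma from testis. Duodenum was the lowest, with 154, 174, 113, 129 and 142 RPM, and its mean was 0.215 times that of the other non-brain libraries, with an adjusted p of 0.0023 by the exact rank-sum test. Plasma, thymus and testis raise that comparison mean to 660 RPM, whereas the median of all 71 non-brain libraries was 250 RPM. Sciatic nerve, which holds axons and Schwann cells but few neuronal cell bodies, had 278 and 226.8 RPM of miR-128 in replicates 1 and 2, inside the range of the other organs. The neuron list summed to 1022 and 992 RPM in the same replicates.

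The test of brain against each other tissue used edgeR on the counts, with TMM scaling of the libraries. TMM moved the median log2 of brain over tissue, over the 480 miRNAs tested, by -0.64 in bone marrow to -1.65 in kidney against scaling by library size alone, and left it between 0.037 in kidney and 1.2 in bone marrow. Of 7200 pairs of miRNA and tissue, 39.6% were called higher in brain at an adjusted p under 0.05. That was 2848 pairs higher and 2006 lower, and with library size alone 3677 higher and 1102 lower. miR-128 was called higher in brain than in all 15 tissues. The log2 of brain over tissue had a median of 5.90 over the 15, and was largest against jejunum, 6.56 ± 0.54 (SE). It was 4.74 ± 0.50 against testis, 4.30 ± 0.49 against skeletal muscle and 3.23 ± 0.46 against thymus. Without testis replicates 2 and 3 the value against testis was 4.26. Without all 6 libraries that stood apart it was 5.29 against testis and 4.89 against skeletal muscle. Those libraries were the lowest in miR-128 of their labels, yet both values rose. In that fit 3487 of 7155 pairs were called higher in brain, so the shift was not particular to miR-128. Without thymus replicate 4 the value against thymus was 4.14, and without thymus replicates 2, 3 and 5 it was 2.39, with edgeR adjusted p of 4.19e-06. Against plasma the log2 was 1.59 ± 0.44 (SE), with an edgeR adjusted p of 0.00109. With library size alone it was 3.43, and with TMM but without those 6 libraries it was 2.24. The size of the fold of brain over plasma thus moved with the scaling and with the libraries in the fit, and brain was higher in each.

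**Figure D2:**
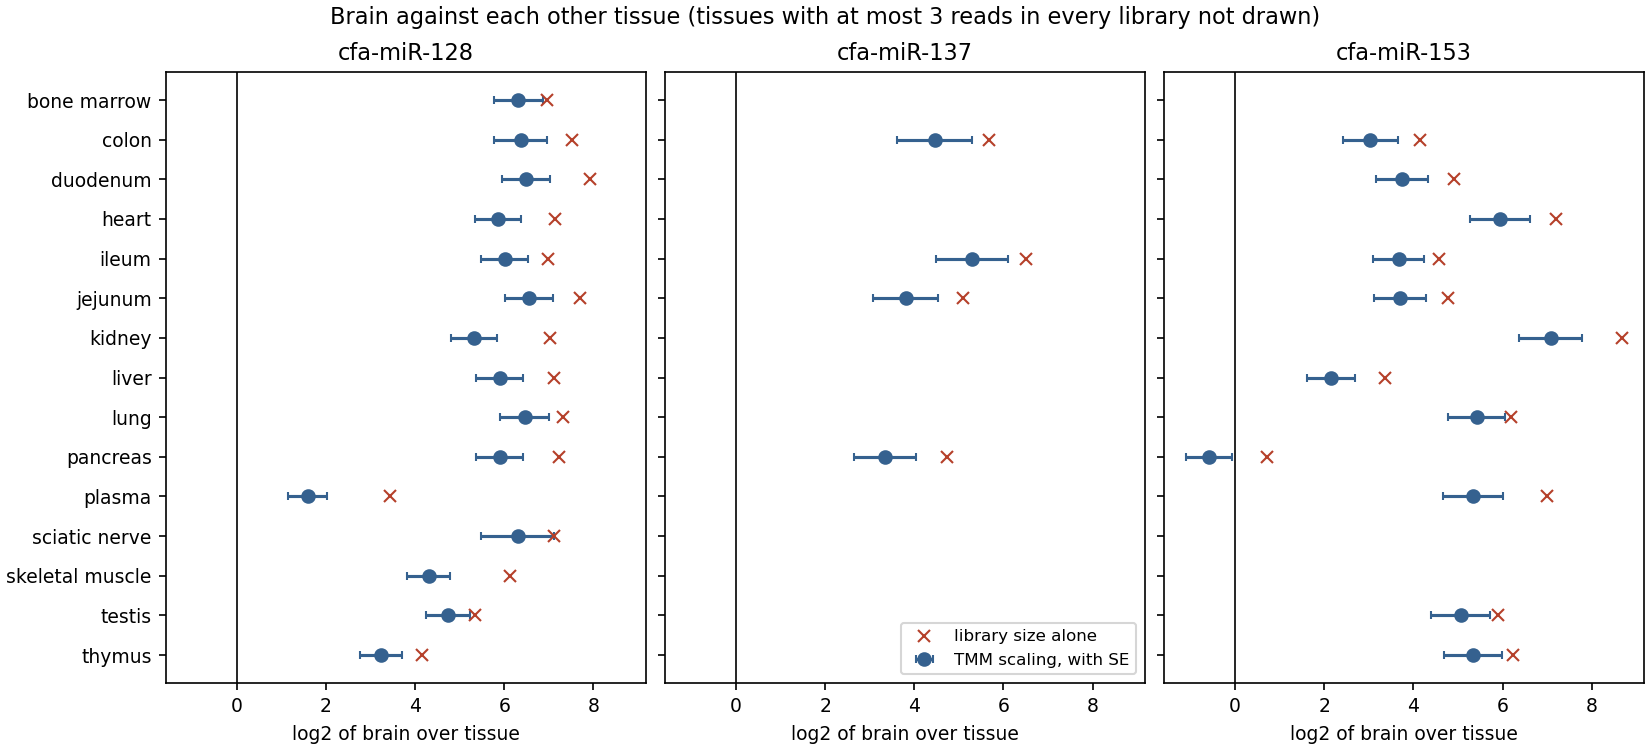
Log2 of the level in brain over the level in each other tissue (horizontal axis) for each miRNA, with blue points and SE bars for edgeR with TMM scaling and red crosses for library size alone; tissues whose libraries all had 3 reads or fewer are left out. miR-128 is right of 0 in all 15 tissues and closest to 0 in plasma, and miR-153 lies left of 0 in pancreas with TMM scaling, at -0.58, and right of it with library size alone, at 0.71.

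Rows for the opposite, 5p, strand separate the pair of miR-128 genes, since hsa-miR-128-1-5p and hsa-miR-128-2-5p differ in sequence while the 3p strand does not. In brain replicates 1 to 5, miR-128-1-5p had 697, 628, 80.5, 569 and 408 RPM. miR-128-2-5p had 77.6, 58.4, 70.2, 60.3 and 56.9 RPM in the same libraries. The 5p strand of MIR128-1 was the more abundant of the pair in brain replicates 1, 2, 4 and 5. In replicate 3 the 164 and 143 reads were within counting error of each other. The 5p strand of MIR128-2 was the more even, with a coefficient of variation of 13.8% against 51.6%. The larger value includes replicate 3, at 80.5 RPM of miR-128-1-5p against 408 to 697 RPM in the others. Both were higher in every brain library than in every other library, with folds of the mean of 34.7 and 66.8. The exact rank-sum test gave adjusted p of 7.18e-07 and 5.67e-07, the lower of which came with many ties at 0 reads outside brain. The highest library outside brain was testis replicate 5 for miR-128-1-5p, at 66.2 RPM, and thymus replicate 4 for miR-128-2-5p, at 37.7 RPM.

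The share of miR-128-2-5p among the reads of both 5p strands was 10.02%, 8.51%, 9.58% and 12.3% in brain replicates 1, 2, 4 and 5. In replicate 3 it was 46.6%, on 143 of 307 reads, with an exact (Clopper-Pearson) 95% interval of 40.9% to 52.3%. Thymus replicate 4 had 44.6% on 289 reads, with an interval of 38.8% to 50.6%, and thymus replicate 1 had 36.7% on 30 reads. Thymus replicate 3, 1 of the libraries low in leukocyte miRNAs, had 0 of 33 reads, with an interval of up to 10.6%, and replicate 5, also low in them, had 15.4% on 13 reads, with an interval of 1.92% to 45.4%. In skeletal muscle the share was 22.0% on 50 reads, of which replicate 3 gave 29. In the other 13 non-brain tissues pooled, miR-128-2-5p made up 4 of 1082 reads, 0.370%, with an interval of 0.101% to 0.944%. Nearly all 5p reads there were those of MIR128-1, and reads of the MIR128-2 strand were found mainly in brain, thymus and skeletal muscle. The shares in muscle and in 4 of the 5 thymus libraries rest on 33 reads or fewer per library. In edgeR, miR-128-2-5p was above thymus in brain by 1.42 ± 0.64 (SE) on the log2 scale with an adjusted p of 0.0507, the only tissue in which the test was missed.

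**Figure D3:**
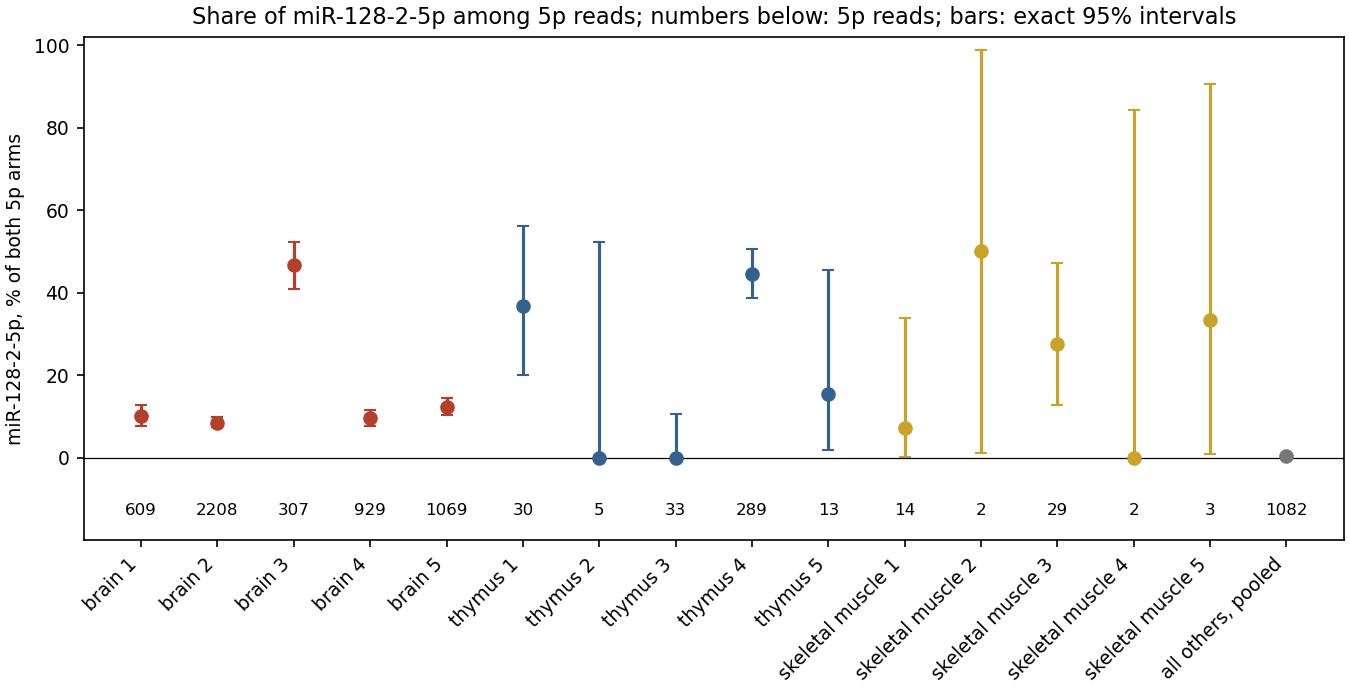
Share of miR-128-2-5p among all 5p reads of miR-128, in percent (vertical axis), for each brain, thymus and skeletal muscle library and for the other non-brain libraries pooled; bars are exact 95% intervals and the numbers below are the 5p reads behind each point. Brain replicate 3, at 46.6%, stands above the other brain libraries and near thymus replicate 4, at 44.6%, while the pooled point is at 0.370%.

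The ratio of the 3p strand to both 5p strands also differed between tissues. There were 60.5 reads of miR-128 for each 5p read in brain over all 5 libraries, 372 in plasma and 57.8 in thymus. In the other tissues the ratio ran from 9.71 in sciatic nerve to 48.3 in skeletal muscle. The plasma value rests on 61 reads of the 5p strands, and that of sciatic nerve on 55. Among brain libraries the ratio ran from 40.2 in replicate 5 to 155 in replicate 3. Among thymus libraries it was 99.8 and 61.7 in replicates 1 and 4, and 5.8, 9.97 and 15.7 in replicates 2, 3 and 5. Replicate 4 gave 289 of the 370 thymus 5p reads, so the pooled thymus ratio is mostly that of this library.

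miR-137 was read at 162, 103, 0.982, 238 and 34.8 RPM in brain replicates 1 to 5. Replicate 3 stood apart, with 2 reads in a library of 2036178 reads and an exact 95% interval of 0.119 to 3.55 RPM, while the other 4 brain libraries held 80 to 351 reads. Those 4 exceeded all 71 other libraries, the highest of which was pancreas replicate 4 with 8.23 RPM. The brain mean was 108 ± 95.6 RPM (SD, n = 5) against 0.983 RPM in the others, a fold of 109, with an adjusted p of 0.00022 by the exact rank-sum test. Leaving out replicate 3 gave a fold of 136.6, and leaving out replicate 4, the highest, gave 76.3, with the call kept in both.

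Outside brain, miR-137 was near the limit of detection. It had at least 1 read in 26 of 71 libraries and more than 3 reads in 10 of them, all from pancreas and gut. In gut (duodenum, jejunum, ileum and colon), 15 of 19 libraries had a read, and in pancreas all 5 did. In the other 47 non-brain libraries it was read in 6, with 7 reads in all and none above 3. No read was found in any library of kidney, lung, plasma or skeletal muscle. Against a floor of 3 reads in each library, the brain mean was at least 85.0-fold higher than kidney, 43.5-fold higher than lung, 28.7-fold higher than plasma and 15.8-fold higher than skeletal muscle. These folds take the brain mean as it stands and leave out its spread. Brain replicate 3, at 0.982 RPM, lay below the mean floor of each of these tissues. In bone marrow, duodenum, heart, liver, sciatic nerve, testis and thymus no library had more than 3 reads, and no fold is given for them.

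The pancreas values of miR-137 were 2.24, 1.89, 2.47, 8.23 and 5.92 RPM in replicates 1 to 5, from 5, 3, 6, 12 and 4 reads. With brain left out, the pancreas mean was 5.59 times that of the other 66 libraries, with an adjusted p of 0.00463 by the exact rank-sum test. This call rested on single libraries, since the fold was 4.21 without pancreas replicate 4 and 4.99 without replicate 5, both under the 5-fold limit. With brain kept among the others the fold was 0.502. Jejunum had 4.21, 0.992, 0.654, 3.92 and 6.43 RPM, 3.99 times the other non-brain libraries with an adjusted p of 0.0214 by the same exact test, and was not called because the fold was under 5. The ranges of miR-137 overlapped in all 15 pairs of neighbouring tissues, brain and jejunum included, because of brain replicate 3.

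In the edgeR test, miR-137 was called higher in brain than in all 15 tissues, with a largest adjusted p of 0.000103, against sciatic nerve. The log2 of brain over tissue was 3.35 ± 0.70 (SE) against pancreas, 3.81 ± 0.72 against jejunum, 4.46 ± 0.83 against colon and 5.30 ± 0.80 against ileum. Without brain replicate 4 the value against pancreas fell to 2.74, and the call was kept. The 5p strand, rno-miR-137-5p, had 39 reads in brain over 5 libraries and 4 reads in all 71 others, 0 of them in pancreas.

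miR-153 was read at 615, 313, 540, 352 and 210 RPM in brain replicates 1 to 5. Pancreas had 313, 217, 264, 204 and 238 RPM, so that 3 of the 5 brain libraries exceeded all others and the ranges of these tissues overlapped. The brain mean was 406 ± 167 RPM (SD, n = 5), 15.1 times the 26.9 RPM of the 71 other libraries, with an adjusted p of 5.26e-06 by the exact rank-sum test. The brain median was 1.12 times the highest other library, and 5.51 times the highest when the pancreas libraries were left aside. All 5 brain libraries then exceeded the remaining 66, of which liver replicate 2 was highest with 64.0 RPM.

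With brain left out, miR-153 was called in pancreas, and in no other tissue. The pancreas mean of 247 ± 43.5 RPM (SD, n = 5) was 24.3 times the 10.2 RPM of the other non-brain libraries, with an adjusted p of 1.77e-05 by the exact rank-sum test. The lowest pancreas library, at 204 RPM, was above all 66 other non-brain libraries. The values of the lists beside it were 114209 to 167201 RPM for miR-375 and miR-7, the endocrine list, and 11952 to 17110 RPM for the acinar miRNAs miR-216a, miR-216b and miR-217, while the neuron list summed to 71.3 to 161 RPM in pancreas. Their part in the miR-153 level was not tested. The 5p strand followed the same tissues, with 68 reads of hsa-miR-153-5p in brain and 47 in all 71 other libraries, 34 of them in pancreas. There were 52.8 reads of miR-153 per read of that strand in brain and 63.0 in pancreas.

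The comparison of brain with pancreas was the only one of the 15 in which miR-153 was not called. By RPM the brain mean was 1.64 times the pancreas mean. In edgeR with TMM scaling the log2 of brain over pancreas was -0.58 ± 0.51 (SE), with an adjusted p of 0.318 and a 95% interval of -1.59 to 0.42. With library size alone it was 0.71, with an edgeR adjusted p of 0.278. Which of these tissues is higher thus turned on the scaling, and the interval holds differences in both directions. The scaled medians were 138 RPM in brain and 267 RPM in pancreas.

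Liver came next for miR-153, with 46.7, 64.0, 29.3, 17.4 and 37.9 RPM in replicates 1 to 5. No liver value reached the lowest of pancreas. The mean was 1.505 times that of the other non-brain libraries, a mean that pancreas raises, with an adjusted p of 0.0308 by the exact rank-sum test. With tissue medians in place of means, liver was 8.67 times the median of the medians of the other non-brain tissues, past the 5-fold limit. The 19 gut libraries ran from 0.778 to 31.6 RPM with a median of 19.0 RPM. Skeletal muscle was at the other end, with 2 reads in replicate 1 and 0 in the other 4. In replicates 2, 4 and 5 a count of 0 allows up to 7.03, 13.6 and 9.50 RPM, above the medians of several other tissues. Those 3 libraries alone thus show no lower level than in these tissues. In replicate 3 a count of 0 allows up to 1.76 RPM. The skeletal muscle mean was 0.00972 times that of the other non-brain libraries, a mean that pancreas raises. The exact rank-sum test gave an adjusted p of 0.0142 for it. In edgeR, brain was above liver by 2.14 ± 0.54 (SE) on the log2 scale, above colon by 3.03 ± 0.61 and above kidney by 7.09 ± 0.71. The value against kidney rose to 8.86 without kidney replicate 2.

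Brain replicates 3 and 5 differed from the other brain libraries, each in different miRNAs. Replicate 5 had the lowest miR-128 and miR-153 of the 5, at 0.453 and 0.471 times the median of the other 4. Its neuron list summed to 30866 RPM, against 47678 to 59307 RPM in the others, and its oligodendrocyte list to 3038 RPM, against 959 to 2018 RPM. It held the lowest value of 3 of the 8 miRNAs of the neuron list, and the median ratio over that list was 0.525. In replicate 3 the median ratio over the list was 0.425 and miR-128 was 0.566 times the median of the other 4. There miR-137 was 0.00743 times the median of the other 4 libraries and miR-128-1-5p 0.135 times, both the lowest of the 5. miR-153 was 1.62 times and miR-128-2-5p 1.18 times that median. Replicate 3 held the lowest value of 5 of the 8 miRNAs of that list, among them miR-132 at 0.0866 times, miR-212 at 0.0648 times and miR-138a at 0.172 times the median of the other brain libraries. miR-124, a miRNA of most neurons, was at 1.63 times and miR-9 at 1.10 times, so that not all neuronal miRNAs were low in it. miR-132 and miR-212 are known to rise with neuronal activity. The same library had 2037 RPM of miR-202, miR-34b and miR-34c together, against 23.0 to 169 RPM in the other 4. Most of that sum was miR-34c, since the means over the 5 brain libraries were 462 RPM for miR-34c, 21.9 RPM for miR-34b and 0.531 RPM for miR-202. The region from which each library was taken is not given, and its part in the values was not tested.

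**Figure D4:**
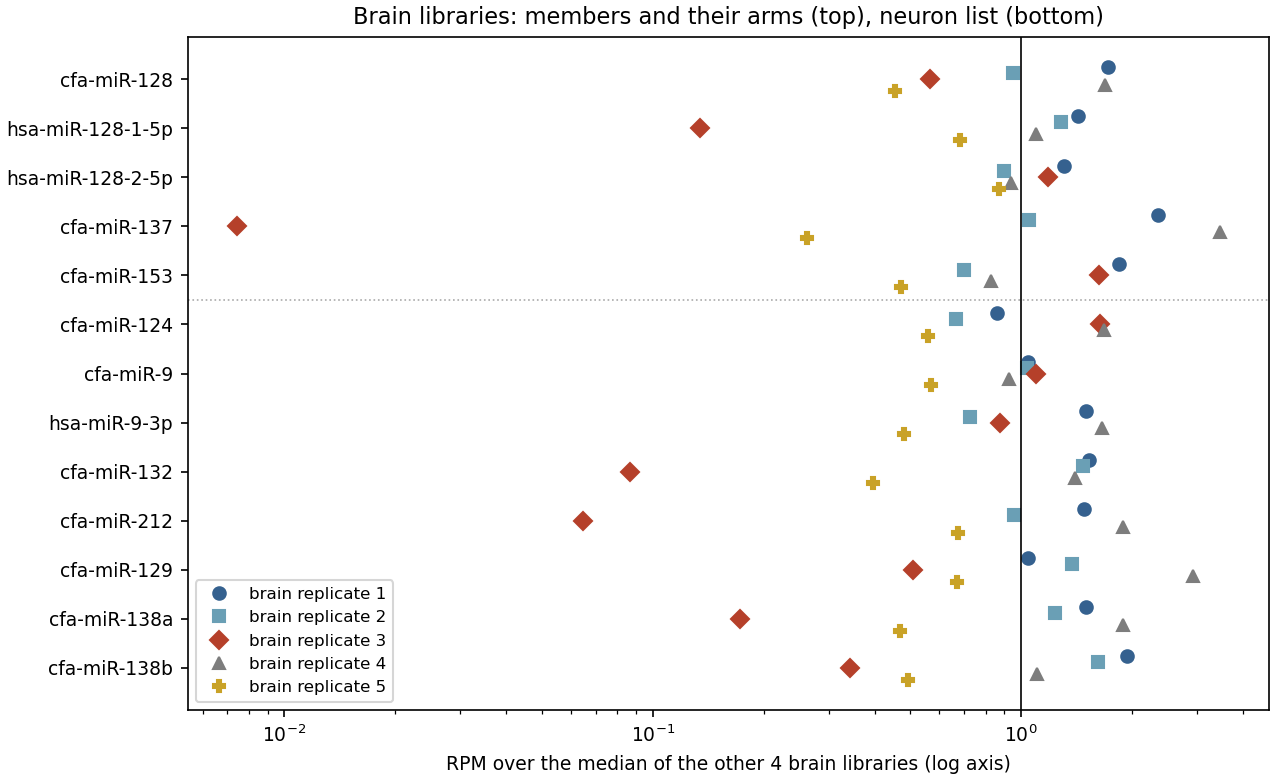
Level in each brain library over the median of the other 4 brain libraries (log axis), for the 3 miRNAs and the 5p strands of miR-128 above the dotted line and the 8 miRNAs of the neuron list below it, 1 symbol per library. Brain replicate 3 is at 0.00743 for miR-137 and 0.0648 for miR-212, and above 1 for miR-153, at 1.62, and miR-124, at 1.63.

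The 8 miRNAs of the neuron list were all called in brain, with a median fold of 175 against 1.10 over all 650 miRNAs. Its folds ran from 40.5 for miR-129 to 2155 for miR-124, so that miR-128 at 55.8 and miR-137 at 109 fell within them and miR-153 at 15.1 below them. For 7 of the 8, all 5 brain libraries exceeded all others, and for miR-129 4 did. Of 120 edgeR comparisons of the list, 118 were called higher in brain and 0 lower. Of the 5 rows of an oligodendrocyte list (miR-219 and miR-338, which act in myelin-forming cells), 4 were called in brain, with a median fold of 7.67. That list summed to 959 to 3038 RPM in brain, 2032 to 2852 RPM in sciatic nerve and 749 to 841 RPM in pancreas.

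The miRNAs most like each of the 3 across tissues were taken by Pearson r of log2(RPM + 1) over the 76 libraries, among the 266 miRNAs whose median passed 100 RPM in some tissue. These correlations are descriptions, since libraries of 1 tissue share its cells and each library shares its depth between miRNAs. For miR-137 the nearest was miR-212 with r = 0.83, followed by hsa-miR-212-3p, miR-219-3p, miR-132 and hsa-miR-9-3p with 0.76 to 0.74. For miR-128 the nearest were miR-219-3p with 0.76, hsa-miR-129-2-3p, miR-1296, hsa-miR-769-5p and hsa-miR-1298-5p, the last with 0.71. For miR-153 the nearest were miR-135a-5p with 0.75, miR-29a with 0.74, miR-137 with 0.67, and then miR-29b and miR-212. Within the 71 libraries other than brain, r of miR-153 was 0.74 with miR-29a and 0.69 with miR-135a-5p, while r of miR-128 with miR-219-3p was -0.06.

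Among the 3 themselves, r was 0.52 between miR-128 and miR-137, 0.35 between miR-128 and miR-153 and 0.67 between miR-137 and miR-153 over all 76 libraries. Without brain these were -0.27, -0.16 and 0.59 over 71 libraries. miR-137 and miR-153 were both read in all pancreas libraries and in 15 and 19 of the 19 gut libraries.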

How the data were processed

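The counts come from the authors' alignment to CanFam3.1 (OSA v4), in which only perfect matches at no more than 10 sites were kept, and a read was counted if it lay over at least 70% of a dog, rat or human miRNA locus (miRBase v.21). The deposited counts were used as they are, with the deposited total of reads on miRNAs as library size, and a miRNA not listed in a sample was set to 0. The deposited RPM is the count scaled to a common total. Of 77 labelled samples, 1 from colon had no values here, and 1 sample name in the table could not be assigned and was not used. Tissues came from the labels.

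Enrichment was tested with the exact rank-sum test, two-sided, on RPM with midranks, with Benjamini-Hochberg adjustment over the 650 miRNAs, or over 638 miRNAs and 15 tissues with brain left out, and called with a fold above 5 and an adjusted p under 0.05. Brain was compared with each tissue by edgeR 4.0.16 in R 4.3.3 (TMM, filterByExpr, quasi-likelihood F test), 1 coefficient per tissue, adjusted over 7200 tests. The SE is the log2 value over the square root of F. DESeq2 1.42.0 was an alternative. The scripts were tested on simulated data. Figures were drawn with matplotlib.

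The text names the 3 miRNAs, their other strands, the 5 most alike and the miRNAs of the marker lists. Members, lists and tests were chosen with earlier results of these data known. No table of miRNA sequences was used here.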

Additional observations from a re-analysis of the deposited data

Results flagged for a closer look

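In tissues of 4 or 5 libraries, the gap between 1 extreme library and its nearest neighbour was compared with the range of the group by Dixon's criterion, over 51 groups in which some library had more than 3 reads. Of these, 4 passed it, and chance passes about 1 in 20. Colon replicate 5 had 286 RPM of miR-128, against 149 to 164 RPM in the other 3 libraries. Heart replicate 3 had 460 RPM of miR-128, against 140 to 226 RPM in the other 4. Ileum replicate 4 had 5.49 RPM of miR-153, from 8 reads, against 17.5 to 22.1 RPM in the other 4. Duodenum replicate 4 had 12.4 RPM of hsa-miR-128-1-5p, from 16 reads, against 2.26 to 5.05 RPM in the other 4. None of these values changes the order of brain, plasma and pancreas given above.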

How the results depend on the processing

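Over 58 values and 418 recalculations with another setting, 399 were taken as the same. A tested value had to stay on the same side of the threshold with the same direction. With no test, a count had to stay within a set ratio of its main value, and a level within 1 SD. Being taken as the same does not mean that sizes held. In brain, 189 of 650 miRNAs were called, and 77 of 266 when only miRNAs above 100 RPM in a tissue were tested. With brain left out, 270 calls became 421 with medians in the fold and 149 with that level filter, which also cut the number of pairs tested. With brain kept among the others, the folds were 1.13 for miR-128 in plasma, 0.502 for miR-137 in pancreas, 0.663 for miR-128 in thymus, 0.285 for miR-128 in testis, 0.389 for miR-137 in jejunum and 0.741 for miR-153 in liver, since brain then raises the mean. TMM-scaled RPM lowered the folds in brain to 20.9 for miR-128, 46.1 for miR-137 and 6.50 for miR-153, all still called. The brain median over the median of the other tissues' medians raised them to 134.9 for miR-128 and 77.4 for miR-153. TMM-scaled RPM also gave 0.774 for miR-128 in testis and brain medians of 14951.5 RPM for miR-128 and 138 RPM for miR-153. The log2 of miR-153 in brain over pancreas was 0.714 with library size alone. Pairs called were higher in brain in 58.7% with TMM, 71.4% with DESeq2 size factors, 68.7% with the DESeq2 test, 76.9% with library size alone and 70.3% without the libraries low in the miRNAs of their label, a set chosen after seeing the data. Medians gave no fold for miR-137 in brain, since the median of the other tissues' medians was 0. With only brain and the compared tissue in the fit, miR-137 was tested and called in 4 tissues, since the count filter removed it from the others.

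With each of 76 libraries left out in turn, 3656 of 3658 values met the same criterion, although some moved in size, such as the miR-128 median in thymus, from 295 to 2072 RPM. The fold of miR-137 in pancreas ran from 4.21 to 6.38. The fold in brain ran from 49.9 to 62.3 for miR-128, 76.3 to 136.6 for miR-137 and 13.2 to 17.8 for miR-153. No paired analysis was possible because the labels give no dog number. Counts of a few reads limit miR-137 outside brain and the strand shares of miR-128 in muscle.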
